A study of Mus musculus with 2 samples.

Results

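The S100 genes were described here in myeloid cells of a malignant pleural effusion, the fluid that collects around the lung when a tumour grows in the chest cavity. The members were S100a1, S100a4, S100a6, S100a8, S100a9, S100a10, S100a11 and S100a13, found as the rows of both count matrices that carry these symbols, 8 of 27998 genes listed. RNA was measured, not protein. Live cells that stained for CD45, a leukocyte antigen, and CD11b, an integrin chain of most myeloid cells, had been sorted from the pleural fluid of mice and sequenced as 2 droplet single-cell libraries of a single group. Each mouse carried tumour cells of the Lewis lung carcinoma line LLC, of which 150000 in 100 µl of PBS were injected into the pleural space, and the fluid was taken at day 10. Strain, age and the number of animals behind a library were not stated. Both libraries come from tumour-bearing mice, so the comparisons lie between cell classes.

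S100 proteins are small calcium-binding proteins with paired EF-hand motifs, which change shape when they bind calcium and then dock onto other proteins. S100A8 and S100A9 form the heterodimer calprotectin, a major cytosolic protein of neutrophils that is also made by monocytes. Once released, it binds zinc and manganese and acts on receptors such as TLR4 and RAGE (encoded by Ager). S100A10 pairs with annexin A2, S100A11 with annexin A1, and S100A4 binds non-muscle myosin, while S100A6, S100A1 and S100A13 bind a range of intracellular partners.

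All the members lie on mouse chromosome 3. By the GENCODE annotation of GRCm38 (the mm10 assembly), 6 of them (S100a1, S100a13, S100a4, S100a6, S100a8 and S100a9) fall within 184.688 kb, chr3:90511034-90695721, and S100a11 and S100a10 within 44.156 kb, chr3:93520488-93564643. S100a8 (chr3:90668978-90670035, plus strand) and S100a9 (chr3:90692632-90695721, minus strand) are neighbours whose transcript ends face each other. The RefSeq start of S100a8 lies inside the GENCODE gene. S100a4 overlaps Gm42674 on the same strand, a gene with 0 UMIs in these libraries. Promoter windows of 250 bases before the transcript start were read from RefSeq (GRCm38.p6) for 7 of the 8 members, all but S100a10. The windows of S100a8 and S100a9 are shown because this pair takes most of the family's RNA, and that of S100a4 because its levels run against theirs. Capitals mark matches to the C/EBP half-site pair TTNNGNAA (searched on both strands, so also as TTNCNNAA) and to the TATA box TATAAA (gene strand); no match of one overlaps the other.
S100a8 (chr3:90668821-90669070, plus strand): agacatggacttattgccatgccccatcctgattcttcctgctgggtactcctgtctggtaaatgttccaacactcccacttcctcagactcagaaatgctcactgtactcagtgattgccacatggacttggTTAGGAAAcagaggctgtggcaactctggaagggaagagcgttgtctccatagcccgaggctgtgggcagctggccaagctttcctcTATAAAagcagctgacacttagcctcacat
S100a9 (chr3:90695722-90695971, minus strand): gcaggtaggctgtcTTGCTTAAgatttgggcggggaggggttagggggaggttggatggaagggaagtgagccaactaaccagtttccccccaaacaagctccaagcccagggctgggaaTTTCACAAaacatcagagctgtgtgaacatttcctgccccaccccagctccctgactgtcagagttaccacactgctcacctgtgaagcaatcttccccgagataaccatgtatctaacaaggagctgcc
S100a4 (chr3:90603520-90603769, plus strand): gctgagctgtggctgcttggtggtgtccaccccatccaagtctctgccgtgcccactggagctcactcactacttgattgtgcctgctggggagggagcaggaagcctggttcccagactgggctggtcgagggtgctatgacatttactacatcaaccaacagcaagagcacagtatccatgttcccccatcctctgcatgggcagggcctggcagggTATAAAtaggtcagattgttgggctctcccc

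The C/EBP letters occurred in the windows of S100a8 (117 bases before the start) and S100a9 (236 and 130 bases before it) and in none of the other 5 windows. They are common letters, held by 36.8% of the 32851 promoters in the RefSeq table. The TATA box letters stood 30 bases before the start in S100a8 and 31 in S100a4, and 7.59% of all promoters held them. Of the other motifs searched on both strands, the PU.1 core GAGGAA (in 23.3% of promoters) was found in S100a8 and S100a11, and the AP-1 site TGANTCA (in 6.75%) in S100a11 alone. A match of letters is a description of the window, not evidence of binding.

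The libraries held 1141 barcodes with 11543829 UMIs (unique molecular identifiers, each counting 1 captured RNA molecule) and 2908 barcodes with 20322996, of which 1106 and 2782 cells were kept. The median barcode of library 2 held 1954.5 UMIs against 9894 and its smallest 500 against 1999, while monocytes had like medians in the libraries (9085 and 9710 UMIs). The libraries shared 4 barcodes. In library 1, 767 cells held Y-linked RNA without Xist and 0 held Xist, while in library 2 most cells with either held Xist alone (1331 against 113). Library 2 also carries 2 antibody tags, named BC2 and BC3 without further explanation, which split by class as given beside the results they touch. The members took 167127 and 497442 UMIs over all barcodes. In the cells kept from both libraries S100a8 had 215113 UMIs, S100a9 150097, S100a6 103893, S100a11 81423, S100a10 41810, S100a4 37147, S100a13 8235 and S100a1 1829. Of 9 other family genes listed, 4 had no UMI and 0 reached 100 UMIs. Levels below are CPM, the UMIs of a gene scaled to 1000000 gene UMIs of the class. Molecules were counted at their 3' end, so levels were not divided by gene length.

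Neutrophils were gated without any S100 gene, by at least 3 UMIs over Cxcr2 (a chemokine receptor), Retnlg (a resistin-like secreted protein), Hdc (histidine decarboxylase) and Csf3r (the G-CSF receptor) and at most 2 UMIs over the complement genes C1qa, C1qb and C1qc. That gate took 161 cells of library 1 and 1473 of library 2, but it did not hold the same cells in both. In 81 of the 161 cells and 25 of the 1473, monocyte or dendritic markers had as many UMIs as the neutrophil markers or more. G0s2, a neutrophil gene outside the gate, had 4.33 and 3.22 CPM in these cells, against 533 and 935 in neutrophils whose own markers led. Ccr2, the monocyte chemokine receptor, had 977 and 1313 against 176 and 64.6. The median depth over the gated cells was 6941 UMIs in library 1 and 1329 in library 2. Results are therefore given for the gate as stated and for neutrophils in which the neutrophil markers outnumber both the monocyte and the dendritic ones, a condition added after the data were seen. The latter were 83 cells (median 2191 UMIs) and 1457 cells (median 1322 UMIs), of which 3 and 9 had met a further gate and were left out of the gate as stated. Genes listed for other cells, outside the gates, were not absent from them. The dendritic list (nearly all Cd74) stood at 5705 and 662 CPM, against 5235 and 7132 in monocytes. The monocyte list (Ccr2, Plac8, Chil3 and Hp) stood at 3954 and 5649 against 6695 and 10731. Ccr2 gave 176 and 64.6 of the sums in neutrophils, so most of them lay in the other genes of the list. The macrophage list (7 genes, Apoe in the lead) stood at 1333 and 452 against 6419 and 4465. The part of this RNA in the members' levels was not tested.

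S100a8 and S100a9 together made up 15.6% of all UMIs of neutrophils with leading markers in library 1 and 12.96% in library 2. With the other 6 members the family reached 16.7% (95% counting interval 16.5% to 16.8%) and 13.9% (13.87% to 13.96%). The gate as stated gave 4.49% and 12.5%, and in the 81 and 25 cells led by other markers the family took 1.24% and 1.30%. In monocytes (Ly6c2, F13a1, Ms4a4c and Vcan at 3 UMIs or more, 357 and 401 cells) it took 1.27% and 1.04%, and in monocyte-macrophages, which carry those markers beside at least 10 C1q UMIs (252 and 458 cells), 1.07% and 0.833%.

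S100a8 stood at 99092 CPM in neutrophils of library 1 and 73470 in library 2, against 977 and 1005 in monocytes, so that neutrophils held 101-fold and 73.1-fold more. S100a9 stood at 56465 and 56127 against 263 and 138, which is 215-fold and 407-fold, against a monocyte level whose interval overlapped that of B cells in library 2, as given below. S100a11 was the third member with more RNA in neutrophils, with 7161 and 6736 against 3339 and 2599, or 2.14-fold and 2.59-fold. In each of these genes both libraries gave the same order.

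S100a4 and S100a10 showed the opposite order. S100a4 stood at 1771 and 1281 CPM in monocytes against 439 and 62.8 in neutrophils. S100a10, the annexin A2 partner, stood at 1700 and 1537 against 291 and 96.5. The fold between monocytes and neutrophils differed between libraries for both genes, 4.04 and 20.4 for S100a4 and 5.84 and 15.9 for S100a10. Few neutrophils held these UMIs: S100a4 was in 9 of 83 cells of library 1 (up to 29 UMIs a cell) and 110 of 1457 of library 2 (up to 10), and S100a10 in 15 (up to 26) and 160 (up to 18), so the levels rest on these cells. S100a1 was low everywhere, with 62.3 and 65.4 in monocytes against 20.5 and 11.8 in neutrophils (5 and 26 UMIs). S100a13 stood at 302 and 295 against 180 and 115. S100a6, the calcyclin gene, was the most even member, with 4268 and 3520 in monocytes and 3310 and 2514 in neutrophils.

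**Figure D1:**
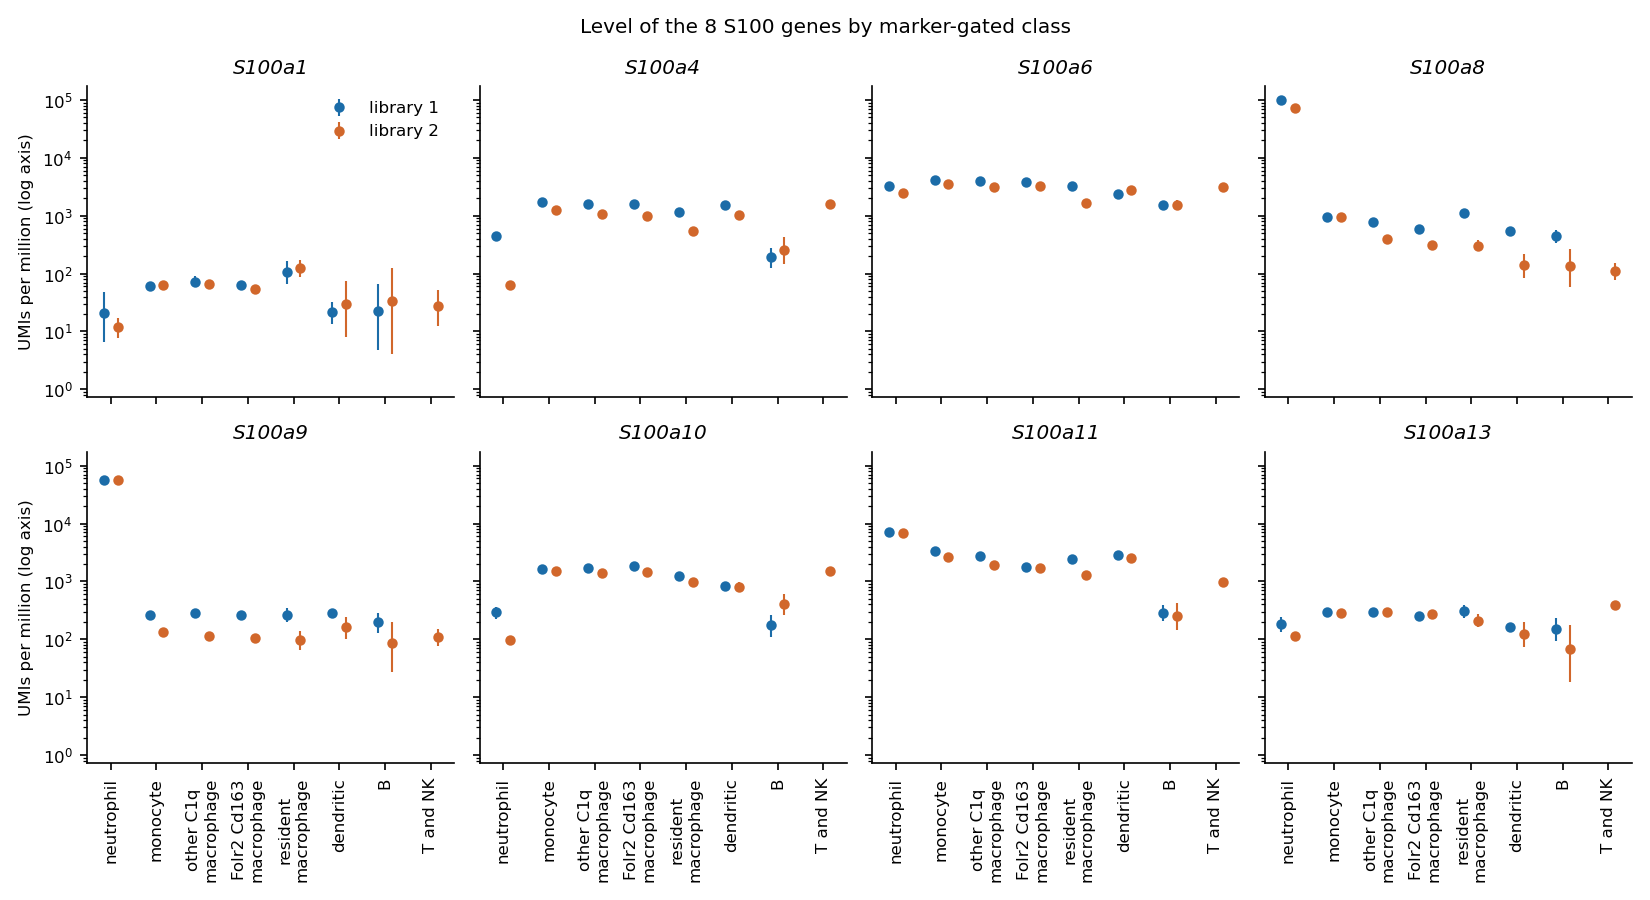
Level of each S100 gene (CPM, log axis) in 8 marker-gated classes, 1 point per library with its 95% counting interval; T and NK cells are shown for library 2 alone, since library 1 held 2 of them. S100a8 and S100a9 stand at 73470 to 99092 and 56127 to 56465 in neutrophils and below 1200 in every other class shown, while S100a4 and S100a10 are lowest in neutrophils or B cells.

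The difference between monocytes and neutrophils was tested with edgeR's quasi-likelihood test on UMIs summed per class and library, with the library as a block (n = 2 libraries) and Benjamini-Hochberg adjustment over all genes. With neutrophils in which the markers led, 7 of the 8 members were called, 4 higher in monocytes and 3 lower, in a comparison that called 54.8% of 9359 genes (28.3% higher, 26.5% lower), so that a call by itself was common. Lower in monocytes were S100a8 (log2 fold change -6.89, SE 0.32, adjusted p = 9.61e-17), S100a9 (-8.75, SE 0.45, adjusted p = 8.28e-10) and S100a11 (-1.72, SE 0.25, adjusted p = 1.05e-06). Higher were S100a10 (2.82, SE 0.28, adjusted p = 3.41e-09), S100a4 (2.66, SE 0.54, adjusted p = 0.00786), S100a1 (1.71, SE 0.29, adjusted p = 1.43e-05) and S100a13 (0.61, SE 0.22, adjusted p = 0.0221). S100a6 differed by -0.05 (SE 0.23, adjusted p = 0.878), although its CPM in monocytes were 1.29 and 1.40 times those in neutrophils. The fall of S100a11 in the fit was likewise larger than its folds by CPM, 2.14 and 2.59. The fit rescales the sums by a TMM factor, which the CPM leave out. The number of animals is not stated. No barcode of library 1 held Xist, while 1331 of library 2 held it without Y-linked RNA. The libraries were therefore not repeats of the same animals. With the library as a block, the p-values rest on how far class differences disagree between the 2 libraries, not on the spread between animals. Animal, sex and technical sources of that disagreement cannot be told apart.

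With the gate as stated, the same test called 0 of 8 members and 0% of 9252 genes, although 3 members and 1478 genes had an unadjusted p under 0.05. DESeq2 called 2 members, S100a8 and S100a9, among 342 of 10170 genes. The estimates kept their order but shrank, to -5.83 (SE 0.92, adjusted p = 0.122) for S100a8 and 1.18 (SE 0.50, adjusted p = 0.324) for S100a10. In single libraries the log2 ratio of monocytes to gated neutrophils was -4.50 in library 1 and -6.03 in library 2 for S100a8, and 0.30 and 2.71 for S100a4.

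**Figure D2:**
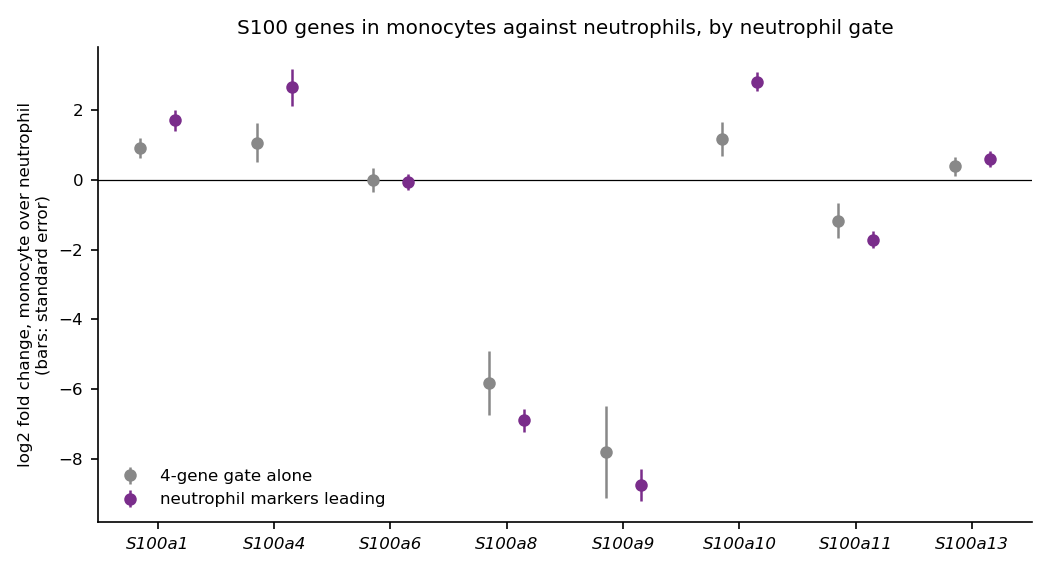
Log2 fold change of each S100 gene in monocytes over neutrophils (edgeR, bars are the standard error, n = 2 libraries), for the 4-gene neutrophil gate as stated and for neutrophils in which those markers lead. S100a8 goes from -5.83 to -6.89 and S100a10 from 1.18 to 2.82, and S100a6 stays near 0.

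In library 2 the antibody tags nearly coincide with these classes, since 21 of 1457 neutrophils but 381 of 418 monocytes, by the leading-marker gates described below, lay on the BC2 side. Within a side the levels still stood apart. S100a8 was at 66968 CPM in the 21 neutrophils and 945 in the 381 monocytes of the BC2 side, and at 73595 in 1436 neutrophils and 1144 in 37 monocytes of the BC3 side. S100a10 was at 313 and 1523 on the BC2 side and at 92.3 and 1443 on the BC3 side, in the same order. With library 2 limited to either side, 5 members were called in the same directions as above, S100a4 and S100a10 higher and S100a8, S100a9 and S100a11 lower.

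Monocyte-macrophages gave a like picture against neutrophils. With leading markers 6 members were called, S100a1, S100a4 and S100a10 higher and S100a8, S100a9 and S100a11 lower, among 59% of genes called (30.7% higher, 28.3% lower). With the gate as stated 0 of 8 were called among 0.292% of genes (0.0108% higher, 0.281% lower). An unadjusted p under 0.05 was reached by 4 members and 2003 genes, and DESeq2 called 3 members among 564 of 9892 genes. Between monocyte-macrophages and monocytes 0 of 8 members and 0% of genes were called, with 0 members and 113 genes under an unadjusted p of 0.05, and DESeq2 called 0 members and 4 genes. The member that came nearest was S100a8, at 663 and 371 CPM in monocyte-macrophages against 977 and 1005. Its log2 fold change was -0.995 (SE 0.25, adjusted p = 0.0520) in the fit with leading neutrophil markers, which called 0 members and 0.833% of genes (0.481% higher, 0.353% lower), and -0.89 (SE 0.75, adjusted p = 1.00) in the other.

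Single neutrophils varied widely in calprotectin RNA. S100a8 and S100a9 together took between 1.01% and 39.2% of a cell's UMIs in library 1, with a median of 19.9% over 83 cells. In library 2 they took between 0% and 41.7%, with a median of 10.9% over 1457 cells, and 5 cells held neither. The share moved with depth in opposite ways. From the shallowest to the deepest quartile of cells the median fell from 21.7% to 8.96% in library 1 and rose from 7.27% to 15.4% in library 2. Cells thinned to 1000 UMIs each, where the 2 genes could be compared at 1 depth, showed a Pearson correlation across cells of 0.72 in 83 cells of library 1 and 0.86 in 1143 cells of library 2, with cells of 1 library sharing their source. Against S100a8, S100a6 gave -0.02 and 0.09. S100a11, at a mean of 8.53 and 6.90 UMIs in neutrophils thinned to this depth, gave 0.31 and 0.13, positive in both libraries. These values are weak and were not tested.

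**Figure D3:**
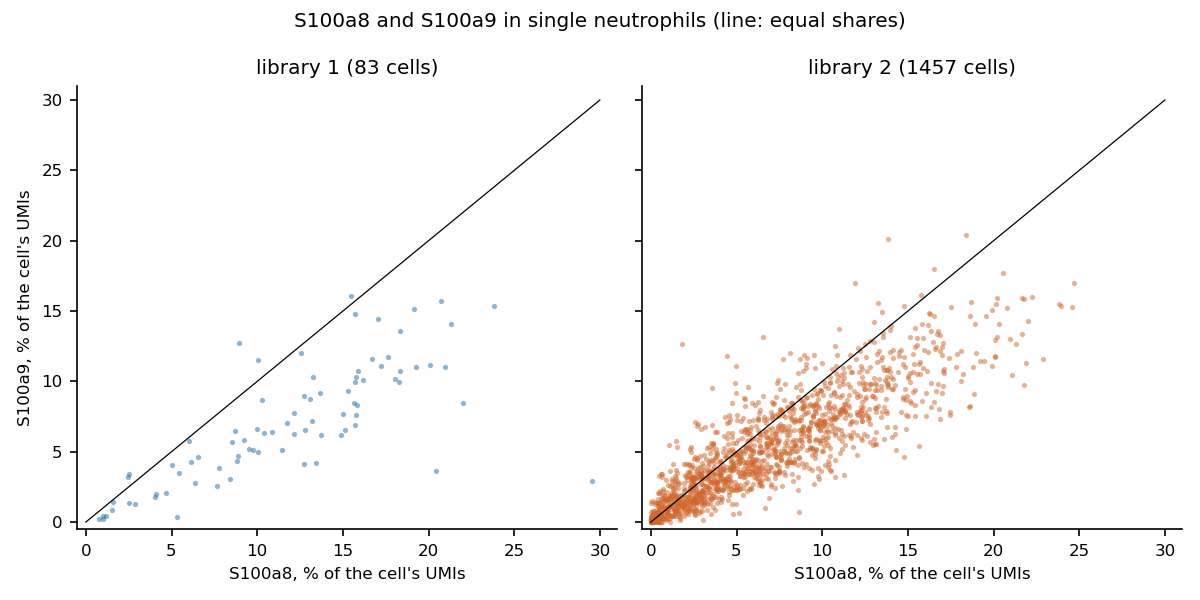
S100a8 against S100a9 as a percentage of each cell's UMIs in neutrophils with leading markers, 1 point per cell, by library; the line marks equal shares. S100a8 reaches 29.6% in library 1 and 24.7% in library 2, with medians of 12.6% and 5.97%, against 6.52% and 4.71% for S100a9.

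S100a8 and S100a9 did not keep 1 proportion across classes. For the other classes a further set of gates was used, chosen after the class sizes were seen, in which the marker list with most UMIs decides the class. It gave 373 and 418 monocytes, 143 and 166 macrophages with C1q and at least 3 UMIs of Folr2 and Cd163 (a folate receptor and a haemoglobin scavenger receptor of tissue macrophages), 123 and 330 other C1q macrophages, 20 and 16 resident macrophages (Prg4, Alox15, Gata6, Selp, Garnl3), 89 and 11 dendritic cells (Cd209a, H2-DMb2, Flt3, H2-Oa), 26 and 11 B cells and 2 and 33 T and NK cells. Neutrophils held 1.75 (interval 1.72 to 1.79) S100a8 UMIs per S100a9 UMI in library 1 and 1.31 (1.30 to 1.32) in library 2. Monocytes held 3.58 (3.33 to 3.86) and 7.06 (6.45 to 7.74), outside the intervals of the neutrophils in both. Other C1q macrophages held 2.73 and 3.36, Folr2 Cd163 macrophages 2.22 and 2.99, resident macrophages 4.25 (3.12 to 5.89) and 3.10 (2.02 to 4.89), dendritic cells 1.92 and 0.864, and B cells 2.23 and 1.60. T and NK cells of library 2 held 1.00 (0.612 to 1.63). In library 2 the intervals of dendritic (0.442 to 1.67), B (0.462 to 6.22) and T and NK cells held the neutrophils' 1.31. Those of monocytes, other C1q macrophages (3.05 to 3.70), Folr2 Cd163 macrophages (2.67 to 3.36) and resident macrophages did not. By tag side of library 2, monocytes held 3499 S100a8 and 438 S100a9 UMIs on the BC2 side (381 cells). On the BC3 side (37 cells) they held 329 and 104, a lower proportion. Neutrophils held 2785 and 2076 on the BC2 side and 158676 and 121272 on the BC3 side. In library 2, 72.9% of the monocytes' S100a8 lay in 42 cells, a spread that a counting interval does not cover.

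**Figure D4:**
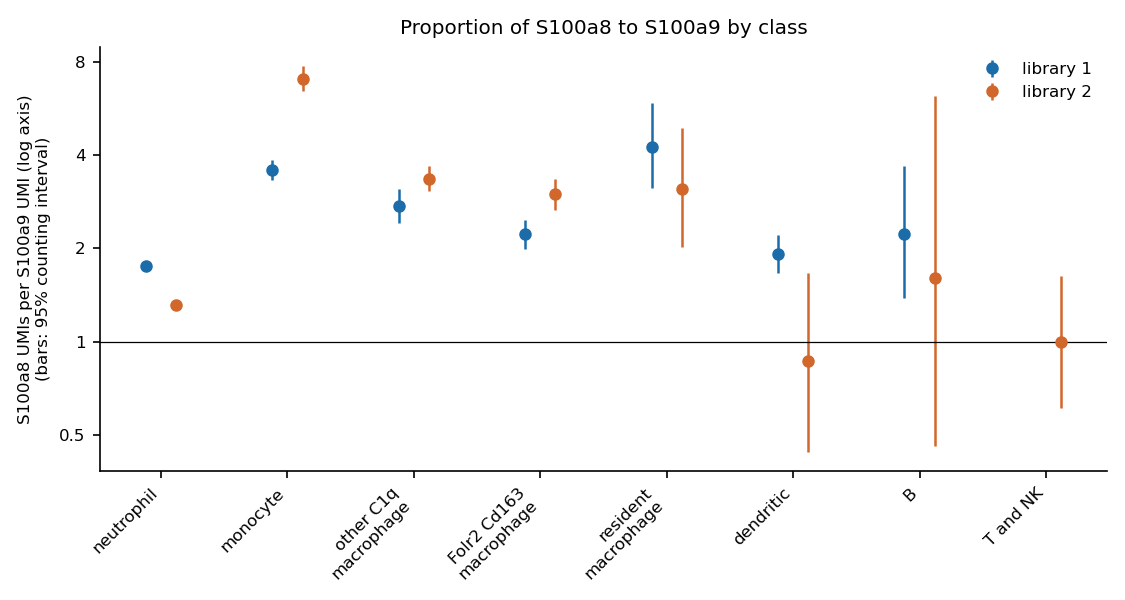
S100a8 UMIs per S100a9 UMI in each class (log axis), 1 point per library with its 95% counting interval. Monocytes lie highest in library 2, at 7.06, with neutrophils at 1.31, and the dendritic, B and T and NK points of library 2 have intervals that reach 1.

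Droplets take up free RNA, so a UMI in a cell is not by itself expression. At 1000 UMIs a cell, S100a8 was seen in 51.7% of monocytes of library 1 (interval 46.5% to 56.9%) and 30.4% of library 2 (26.0% to 35.2%). In B cells, which should lack it, it was seen in 34.6% (17.2% to 55.7%) and 18.2% (2.28% to 51.8%), and in T and NK cells of library 2 in 12.1% (3.40% to 28.2%). S100a9 was seen in 24.7% and 13.9% of monocytes against 15.4% and 18.2% of B cells, with 2 of 11 B cells in library 2. By level, S100a9 in library 2 stood at 136 CPM (interval 125 to 148) in monocytes, 85.4 (27.7 to 199) in B cells and 111 (77.5 to 153) in T and NK cells, and was not separated from them at this depth. The intervals of the shares of monocytes and B cells overlapped for both genes in both libraries. By level, the intervals of S100a8 did not overlap. It stood at 947 (915 to 980) and 959 (929 to 990) CPM in monocytes. In B cells it stood at 440 (334 to 569) and 137 (59.0 to 269), a difference whose test is given below. Without thinning, S100a8 was seen in 98.1% and 82.1% of monocytes (median 9085 and 9710 UMIs) and in 92.3% and 45.5% of B cells (median 5488 and 5395 UMIs). G0s2 and Mmp9, genes of the neutrophils outside the gate, stood at 2 to 4 and 15 to 44 CPM in monocytes, against 533 to 935 and 677 to 924 in neutrophils. They are 2 of a list of 12 such genes. The whole list summed to 1161 and 1356 CPM in monocytes, against 18736 and 17477 in neutrophils.

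A part of the S100a8 RNA of monocytes lay in few cells, a larger part in library 2 than in library 1. The 37 monocytes of library 1 and 42 of library 2 with most S100a8 UMIs held 38.9% and 72.9% of the class's S100a8, at 16 to 111 and 15 to 321 UMIs a cell. Over the remaining cells the level was 639 and 293 CPM. In macrophages the like top cells held 29.4% and 59.4% of S100a8 (other C1q macrophages, 12 and 33 cells) and 23.5% and 39.5% (Folr2 Cd163 macrophages, 14 and 17 cells). In the high cells the pair stood at 12.1 and 16.5 S100a8 UMIs per S100a9 UMI, against 2.48 and 2.78 in the other monocytes. The high cells held 0 and 1 UMI of G0s2, 19 and 6 of Mmp9 and 28 and 11 of Retnlg, which the gate limits. Retnlg stood at 84.1 and 24.3 CPM in the high cells against 70.2 and 8.76 in the other monocytes. Mmp9 stood at 57.1 and 13.3 against 42.8 and 15.5. Chil3, a chitinase-like protein of monocytes, stood at 9433 and 7570 CPM in the high cells against 3112 and 3265. These cells were chosen by S100a8, so the values describe them and carry no test. A split by Ly6c2, which marks classical monocytes, did not use an S100 gene. Monocytes with 3 or more Ly6c2 UMIs held S100a8 at 1007 (interval 921 to 1100) in library 1 and 1147 (1103 to 1192) in library 2, and those with none at 827 (789 to 865) and 477 (432 to 526).

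Outside neutrophils and monocytes, S100a8 was lower in library 2 in every class with both libraries. It stood at 776 and 389 CPM in other C1q macrophages, 593 and 309 in Folr2 Cd163 macrophages, 1120 and 303 in resident macrophages, 536 and 140 in dendritic cells and 440 and 137 in B cells. Monocytes held 947 and 959. Neutrophils made up 7.504% of the cells of library 1 and 52.4% of library 2, and the part of their free RNA in these levels was not tested.

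Against monocytes, macrophages with Folr2 and Cd163 were called different in 0 of 8 members, among 1.86% of 8805 genes called by edgeR (1.03% higher, 0.829% lower), with 1 member under an unadjusted p of 0.05. DESeq2 called 1 member, S100a11, among 60 of 2760 genes. S100a11 stood at 1783 and 1726 CPM in these macrophages and 3334 and 2617 in monocytes (edgeR log2 fold change -0.77, SE 0.23, adjusted p = 0.0994). S100a8 had the larger estimate and the wider error, -1.27 (SE 0.54, adjusted p = 0.446). S100a10 stood at 1854 and 1438 against 1656 and 1517, a log2 fold change of 0.02 (SE 0.26, adjusted p = 0.995).

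Resident macrophages were the class with most S100a1, a gene known best from heart and skeletal muscle. It stood at 108 (21 UMIs) and 125 (37 UMIs) CPM against 60.7 and 64.1 in monocytes, higher in both libraries (log2 fold change 0.88, SE 0.25, adjusted p = 0.0369), and was the 1 member called among 5.63% of genes (3.82% higher, 1.82% lower). The call rests on 20 and 16 cells and was lost without the library block (adjusted p = 0.219), with library 2 limited to the BC2 side (adjusted p = 0.211) and without a filter on low counts (adjusted p = 0.128). S100a6 and S100a11 were lower in both libraries without passing the threshold, at 3262 and 1635 against 4196 and 3473 for S100a6 (log2 fold change -0.73, SE 0.23, adjusted p = 0.0619) and 2405 and 1268 for S100a11 (-0.77, SE 0.24, adjusted p = 0.0525). Fabp4, Saa3, Icam2 and Timd4, resident markers outside the gate, summed to 6085 and 5664 CPM in this class and to 269 and 206 in monocytes. A dendritic check list (Cd74, Ciita, Zbtb46 and Klrd1, nearly all Cd74) summed to 15003 and 6989 CPM against 5235 and 7132. In the 14 and 13 cells that met the resident gate and no other, the resident list had 1179 and 1673 UMIs and the dendritic list 23 and 1502, so in library 1 the class of 20 cells has more dendritic-list UMIs (2907) and no more resident-list UMIs (1179). S100a1 stood at 163 and 128 CPM in those 14 and 13 cells.

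Dendritic cells were lower than monocytes in 3 members and higher in 0, among 15.9% of genes called (8.02% higher, 7.86% lower). S100a1 stood at 21.5 and 29.4 CPM (23 and 4 UMIs), with a log2 fold change of -1.41 (SE 0.31, adjusted p = 0.00150). S100a10 stood at 836 and 816 (log2 fold change -0.95, SE 0.27, adjusted p = 0.0142). S100a13 stood at 165 and 125 (-0.95, SE 0.26, adjusted p = 0.0115). S100a4, at 1511 and 1029 against 1738 and 1274, differed by -0.27 (SE 0.38, adjusted p = 0.709), and S100a11 by -0.14 (SE 0.23, adjusted p = 0.762). Without the block 1 of the 3 calls was left, that of S100a1, and DESeq2 called S100a8 (adjusted p = 0.0148) in place of S100a10 (adjusted p = 0.157). All genes called numbered 495 of 8805 without the block and 1109 of 9963 with DESeq2.

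B cells, a few of which come through the CD11b sort, were lower than monocytes in 5 members and higher in 0, among 19.1% of genes called (7.44% higher, 11.7% lower). S100a11 fell most, from 3334 and 2617 CPM to 288 and 256 (log2 fold change -3.48, SE 0.29, adjusted p = 3.35e-10). S100a4 stood at 190 and 256 (log2 fold change -2.92, SE 0.48), S100a10 at 175 and 410 (-2.63, SE 0.33), S100a6 at 1541 and 1537 (-1.37, SE 0.24) and S100a13 at 152 and 68.3 (-1.30, SE 0.34). The fall of S100a8 to 440 and 137 did not pass (-1.88, SE 0.64, adjusted p = 0.0929), although it did with DESeq2 (adjusted p = 0.0129). The macrophage check list stood at 9110 and 6933 CPM in these sums, nearly all Apoe, with 3 and 4 of its 7 genes at 0. That was above the 6419 and 4465 of monocytes and the 8283 and 5188 of Folr2 Cd163 macrophages. The source of this RNA and its part in the members' levels were not tested. The 33 T and NK cells of library 2 held S100a4, S100a6 and S100a10 at 1586, 3086 and 1540, against 1274, 3473 and 1517 in the monocytes of that library, and S100a11 at 990 against 2617.

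**Figure D5:**
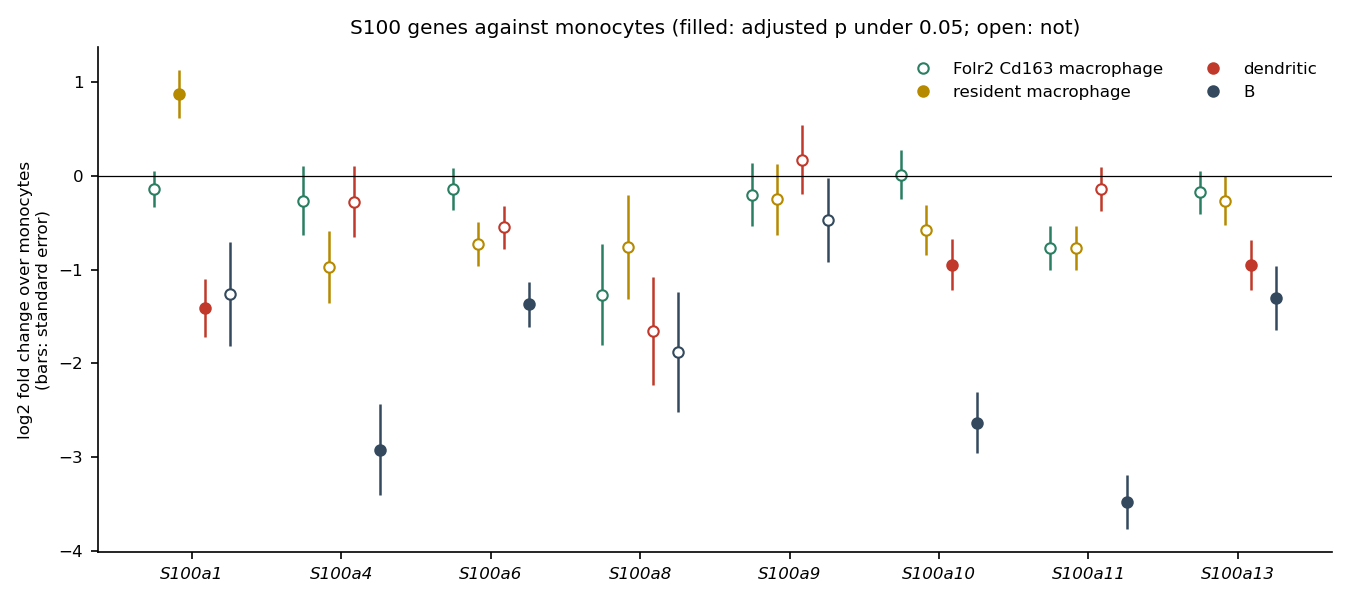
Log2 fold change of each S100 gene over monocytes in 4 classes (edgeR, bars are the standard error, n = 2 libraries); filled points have an adjusted p under 0.05. S100a1 is the filled point above 0, in resident macrophages (0.88), and S100a11 in B cells is the lowest (-3.48).

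The partners of S100 proteins were read from lists drawn up by function, with tests from the fit above and levels from the leading-marker gates. Of 6 annexins, 3 were higher in monocytes than in neutrophils with leading markers and 2 lower, where 28.3% and 26.5% of all genes were, with a median log2 fold change of 0.36 against 0.13 over all genes tested. Anxa2, the partner of S100A10, was not called (0.06, SE 0.23, adjusted p = 0.840), although S100a10 differed by 2.82. It stood at 1419 and 1087 CPM in monocytes and 1025 and 747 in neutrophils. Anxa1, the partner of S100A11, was lower in monocytes (-0.99, SE 0.29, adjusted p = 0.00977), at 254 and 210 CPM against 262 and 352. These unscaled levels were nearly the same in library 1, and the TMM factor of the fit adds to the difference. Against monocytes, B cells were lower in 4 of the annexins (11.7% of all genes), among them Anxa2 at 83.5 and 137.

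Receptors of extracellular S100 proteins were divided. Of 7, 6 could be tested, with 2 higher in monocytes than in neutrophils (28.3% of all genes) and 3 lower (26.5%). Ly96, the co-receptor of TLR4, was higher (log2 fold change 0.70, SE 0.24, adjusted p = 0.0156) and Tlr4 itself lower (-1.13, SE 0.22, adjusted p = 8.80e-05). Cd14 was lower, at 474 and 315 CPM in monocytes against 1042 and 1009 in neutrophils (-1.84, SE 0.25, adjusted p = 4.60e-07), as was Cd33, a sialic acid-binding receptor (-3.38, SE 0.22, adjusted p = 2.54e-13). The scavenger receptor Cd36 was higher (2.19, SE 0.52, adjusted p = 0.000749) and Bsg did not pass (0.37, SE 0.23, adjusted p = 0.175). Ager passed no filter, with 6 and 6 UMIs over all monocytes and 0 and 13 over all neutrophils. Dendritic cells were lower than monocytes in 5 of the 6 tested (7.86% of all genes), among them Cd14 at 64.4 and 73.5 (log2 fold change -2.56, SE 0.33, adjusted p = 2.63e-06).

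Of 7 regulators known to act on myeloid S100 genes, Cebpd was not analysed here. Lower in monocytes than in neutrophils were 4 (26.5% of all genes), among them Cebpb (log2 fold change -1.57, SE 0.24, adjusted p = 2.61e-06), Cebpe (-1.70, SE 0.34, adjusted p = 0.000317) and Spi1, which encodes PU.1 (-1.10, SE 0.24, adjusted p = 0.000331). The fourth, Klf5, had 2 and 14 UMIs in neutrophils and 0 in monocytes. Once it passed the count filter its call could go only that way, so it adds no support. Cebpa (1.38, SE 0.28, adjusted p = 0.000174) and Klf4 (2.76, SE 0.46, adjusted p = 1.49e-05) were higher (28.3% of all genes). Of the other EF-hand genes listed, Aif1, which encodes an actin-bundling protein, was among those higher in monocytes (log2 fold change 2.74, SE 0.28, adjusted p = 2.49e-09), and Lcp1, Pef1 and Sri were lower, at -2.02, -1.22 and -0.83. All 12 neutrophil genes outside the gate were lower in monocytes with a median of -4.50; they had been listed as neutrophil genes.

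Likeness was read across 14 sums, 7 classes in each library, as the correlation of log2(CPM + 10) centred within a library, over 7060 genes. It is a description, since all sums of a library share their source. S100a8 and S100a9 were alike at r = 0.97, and S100a4 and S100a10 at 0.96, while S100a4 against S100a9 gave -0.62. The genes most like S100a8 were Csf3r, which is in the neutrophil gate, Max and Arg2 (0.99 each), and those most like S100a9 were Stfa2, Nlrp12 and BC100530 (1.00 each). S100a10 was nearest to Psma3, Psmb5 and Mydgf (0.98 each), S100a4 to Esyt1, Psma7 and Prdx1 (0.96 to 0.97), S100a11 to Apobr, Diaph1 and Arrdc4 (0.97 to 0.98) and S100a6 to Gng2, Capzb and Chmp2a (0.94 to 0.96). S100a13 was nearest to Nfxl1, Akap7 and Selm (0.96 to 0.97) and S100a1 to Pon2, Aifm2 and Rras (0.93 each).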

How the data were processed

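For each library the authors deposited UMI counts per gene and cell barcode (whole numbers, not normalized). Per the submitters' processing notes, Cell Ranger 3.0.1 and mm10 were used. Strand use in counting was not stated, and counts of the antibody tags stayed out of library sizes. Barcodes with under 300 genes or over 10% mitochondrial UMIs (25 and 61) were left out. So were 10 and 65 barcodes most like simulated pairs of cells (10 neighbours, 30 components, 2000 variable genes, at 0.8% per 1000 cells).

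Marker genes gated the classes, and a cell meeting 2 or more gates was left out (116 and 106 cells, or 113 and 97 where the neutrophil markers decide), as were ungated cells (156 and 289). The gate for C1q macrophages without monocyte markers held 13 and 6 cells, under the 20 required, so the planned comparisons with it have no test: S100a8 stood there at 708 and 233 CPM and S100a4 at 1578 and 759. The comparisons with monocytes and the leading-marker gates (at least 10 cells) were added after the data were seen. UMIs were summed per class and library and tested with edgeR 4.0.16 in R 4.3.3 (glmQLFit robust, TMM, filterByExpr, library as a block, calls at an adjusted p of 0.05); the script was tested on simulated data. DESeq2 1.42.0 was an alternative. All 8 members passed the filter on low counts in every fit. A standard error is the absolute log2 fold change over the root of F. Log2 ratios of single libraries add 0.5 UMIs and use no TMM factor. Intervals are exact 95% Poisson (levels) or Clopper-Pearson (shares), and cover counting error only.

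The rule for named genes was all 8 members, the genes of 5 lists, and the 3 genes most like each member. Members, lists and markers were chosen with earlier results of these data known. The block pairs the classes of the same library. The counts over the list of EF-hand genes are not reported here.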

Additional observations from a re-analysis of the deposited data

How the results depend on the processing

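The members called in monocytes against neutrophils moved most with the neutrophil gate, from 0 to 4 (1 higher, 3 lower) with gate minimums of 5 in place of 3, to 7 (4 and 3) with gates on cells thinned to 1000 UMIs, to 1 with cells of at least 2000 UMIs, to 2 with library 2 limited to either antibody tag, to 7 with neutrophil markers leading (5 within either tag), to 2 without a filter on low counts and to 2 with DESeq2. Genes called in these fits moved from 0 of 9252 to 2111 of 9147 with the higher minimums and 4003 of 6974 with thinned gates. They were 261 of 9280 in deep cells, and 202 of 9279 and 132 of 7804 on the BC2 and BC3 sides. With markers leading they were 5129 of 9359 (1406 of 9127 and 2412 of 6845 within the BC2 and BC3 sides). Without the count filter they were 143 of 14341, and with DESeq2 342 of 10170. Monocyte-macrophages against neutrophils went from 0 to 5 with the higher minimums, 3 with deep cells, 1 without cell filters, 3 on the BC2 side, 6 with markers leading (5 on the BC2 side), 2 without the count filter and 3 with DESeq2, and monocyte-macrophages against monocytes to 1 on the BC2 side. For monocyte-macrophages, genes called against neutrophils went from 27 of 9252 to 2934 of 9147, 628 of 9280, 118 of 9253 and 487 of 9279. Then came 5522 of 9359 with markers leading (1613 of 9127 on the BC2 side), 363 of 14341 and 564 of 9892. Against monocytes 136 of 9279 genes were called on the BC2 side, from 0 of 9252. The cause of these moves was not tested.

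Folr2 Cd163 macrophages against monocytes went from 0 to 1 member with higher minimums, with deep cells, on the BC2 side and with DESeq2. Genes called in those fits went from 164 of 8805 to 223 of 9221, 219 of 8283, 463 of 8544 and 60 of 2760. Resident macrophages went from 1 to 4, 4, 3, 2 and 3 members with higher minimums, thinned gates, deep cells, no cell filters and no count filter. Genes called went from 496 of 8805 to 740 of 9221, 971 of 7421, 555 of 8283, 509 of 8833 and 679 of 14861. Without the replicate block, which pairs classes of the same library, dendritic cells kept 1 of 3 calls and resident macrophages 0 of 1. Genes called there numbered 495 of 8805 for dendritic cells and 202 of 8805 for resident macrophages. S100a6 in monocytes against neutrophils turned to 0.0059 without the block, and the other member counts stayed within 1.5 times. S100a6 changed sign, never called, at 0.0045 without cell filters, 0.10 and 0.038 on the BC2 and BC3 sides, 0.32 with markers leading on the BC2 side, 0.34 without the TMM factor and 0.057 without the count filter, and against monocyte-macrophages at 0.16 with markers leading on the BC2 side and 0.19 without TMM. Leaving out the TMM factor moved the median of all genes from 0.02 to 0.37. Thinned gates turned S100a8 and S100a9 in B cells to 2.36 and 3.26 and S100a13 in resident macrophages to 0.15, and leaving out the count filter turned S100a10 in Folr2 Cd163 macrophages to -0.0048; none of these was called.

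As means of the 2 libraries, thinned gates gave neutrophils a family share of 16.7% and monocyte-macrophages a ratio of the pair of 1.67, and leading markers a share of 15.3%. Shares of cells with a UMI depend on depth (means of the 2 libraries, too): at 500 UMIs S100a9 was in 10.6%, S100a4 in 48.9% and S100a10 in 51.7% of monocytes, and S100a4 in 43.6% and S100a10 in 52.4% of monocyte-macrophages. Without thinning S100a8, S100a9, S100a4 and S100a10 were in 90.3%, 76.0%, 95.6% and 96.6% of monocytes and in 93.9%, 86.1%, 98.4% and 99.1% of monocyte-macrophages. With 1 library left there is no test.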
